A study of Mus musculus with 12 samples.

Results

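Mouse embryonic stem cells that carried the hairpin shKdm5c#2, directed against Kdm5c, were compared with cells of the same origin that carried a non-targeting control hairpin. The comparison takes the arrays labelled shKdm5c#2 A to D and those labelled sh control A to D, 8 of the 12 arrays of the study, and describes the 18322 genes that could be named on them. Both lines were made from IB10 (E14) cells with a lentiviral pLKO-puro vector, and both therefore carried an integrated provirus and puromycin resistance, per the labels. Selection began 24 h after the last infection, the colonies that survived were pooled, and each line is thus 1 polyclonal population, grown on gelatin in serum and LIF. Each line gave 4 cultures, and the RNA of each culture was hybridised on 1 spotted oligonucleotide array against RNA of untreated IB10 cells. The culture was in Cy3 in A and C and in Cy5 in B and D, and every ratio below is culture over IB10 on a log2 scale, with the fitted dye effect removed. Nothing in the labels says that the cultures were infected separately, so the spread behind each p-value is that of cultures from a single line per hairpin, and an effect of the hairpin cannot be told apart from any other difference between the 2 lines. The RNA is from whole cultures, in which more cells of a kind and more RNA per cell cannot be told apart.

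Kdm5c is an X-linked enzyme with a Jumonji catalytic domain that takes methyl groups off lysine 4 of histone H3, a mark of active promoters and enhancers. It acts with repressor complexes, and in mouse embryonic stem cells and neurons it is known for keeping promoters of germ-cell genes silent and for trimming the mark at promoters and enhancers. Embryonic stem cells in serum and LIF are a mixed population. Some cells stand close to the naive inner cell mass and others closer to the primed epiblast, which responds to Wnt and Nodal signals by expressing genes of the primitive streak.

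The hairpin of the control line is shown because every difference below is read against it. Capitals mark the 21-base arms that pair with each other in the transcript, as printed in the labels.
control hairpin: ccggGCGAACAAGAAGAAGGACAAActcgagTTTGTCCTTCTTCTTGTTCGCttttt

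By its brightest probe, Kdm5c stood at 61.7 percent of the control level in the shKdm5c#2 line, and each of the 4 shKdm5c#2 cultures was below each control culture, as was so for 13.0 percent of all genes. The cultures A to D read -0.64, -0.67, -0.69 and -0.70 in the shKdm5c#2 line, against 0.05, 0.04, 0.04 and -0.05 in the control line (log2 difference -0.70, standard error 0.05, limma adjusted p = 2.98e-08). A dimmer probe put the transcript at 50.5 percent of control, and the dimmest, MMAB032660, showed a log2 difference of -0.04 with an adjusted p of 0.689. Position of the probes relative to transcript ends or isoforms is not given in the sources used here. Other enzymes that act on methylated lysine 4 of histone H3 differed little by their brightest probes. Of the 10 genes listed for that role or closely related to it, 3 were called lower and 0 higher, where 12.3 percent of all genes tested were called lower. Beside Kdm5c these were Mina at -0.15 (adjusted p = 0.00278) and Kdm2b at -0.13 (adjusted p = 0.0138, and 0.0519 without culture B of shKdm5c#2). Neither was called without the dye term, with median centring, or in the cultures of either dye alone, so that the count was then 1. Kdm2a was not called by its brightest probe, at -0.01. However, 1 of its 6 probes was called higher, and the log2 differences of its probes ran from -0.09 to 0.40. Kdm5d, the Y-linked counterpart of Kdm5c, differed by -0.15 with an adjusted p of 0.343. Culture D of the shKdm5c#2 line read -0.44 for it while the other 7 cultures lay between -0.07 and 0.11.

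Markers of embryonic stem cells were detected in both lines. Pou5f1, Sox2 and Zfp42, transcription factors of pluripotency, were above background on all 8 arrays. So were 15966 of the 18322 genes, and detection alone therefore says little about cell type. The log2 differences of Pou5f1, Sox2 and Zfp42 were -0.05, 0.03 and -0.19 (limma adjusted p = 0.456, 0.693 and 0.0592). Zfp42 was called lower without culture B of the shKdm5c#2 line or of the control line (adjusted p = 0.0437 and 0.0147). Nanog, another factor of that network, fell by 0.38 (standard error 0.06, adjusted p = 0.000331), and was not called with median centring (adjusted p = 0.209) or in the Cy5 cultures alone (adjusted p = 0.0567). Culture D of the shKdm5c#2 line stood somewhat apart, with a residual SD of 0.08 log2 where the other 7 arrays had 0.05 to 0.06, and it correlated with culture B of its line at r = 0.508, the lowest within either line. Without it the number of genes called was 4317.

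In the comparison as fitted, 4074 genes passed a limma adjusted p of 0.05, which is 22.2 percent of all genes tested. Of these, 1825 were higher (9.96 percent) and 2249 lower (12.3 percent) in the shKdm5c#2 line. Every count of called list members in this report is to be read beside these shares of all genes. Most differences were small, with a median size of 0.19 log2 among called genes. A difference of at least 1.5-fold was reached by 187 genes (1.02 percent), 78 higher (0.426 percent) and 109 lower (0.595 percent). The cultures of the 2 lines did not overlap in 24.1 percent of all genes, and 19.6 percent were also called. In 22 genes the difference was at least 2-fold upward and in 21 at least 2-fold downward. The share of genes called depended on brightness. With the genes cut into 4 classes of equal size, 6.64 percent of the dimmest class were called, then 19.4 and 29.5 percent, and 33.4 percent of the brightest class. With median centring in place of the loess step, 795 genes were called in all and 193 at 1.5-fold or more.

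**Figure D1:**
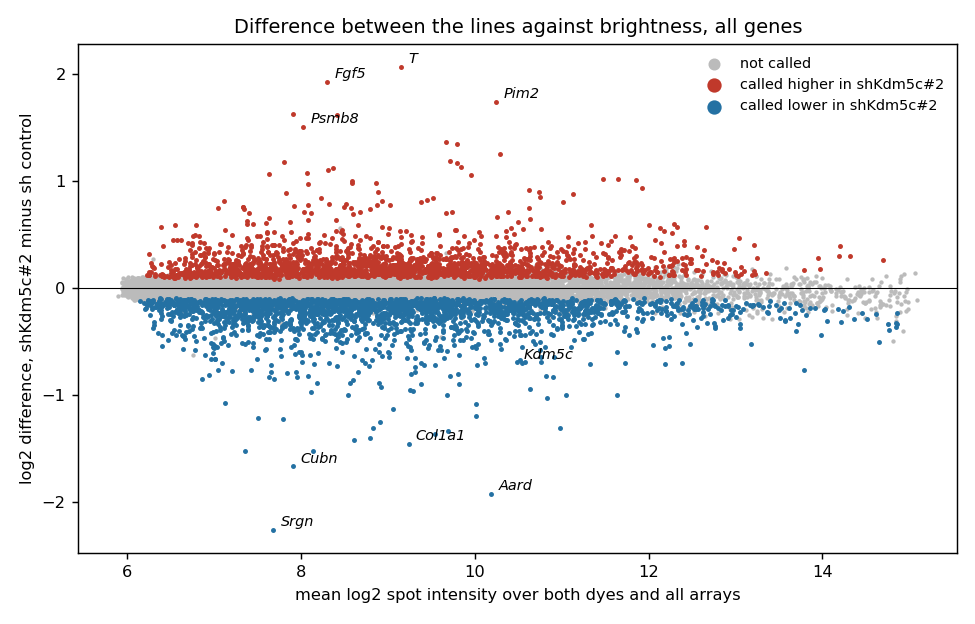
Log2 difference between shKdm5c#2 and sh control (vertical axis) against mean log2 spot intensity (horizontal axis), 1 point per gene. Called genes spread over nearly the whole range of brightness, T reached 2.07 and Srgn -2.26, and Kdm5c at -0.70 lay well inside these extremes.

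Set against the untreated IB10 RNA, the common reference of every array, the 187 genes mostly had the 2 lines on opposite sides. Among the 78 higher genes, the median over IB10 was 0.28 in the shKdm5c#2 line and -0.58 in the control line. The control line was the farther from IB10 in 54 of them, and the 2 lines lay on opposite sides of IB10 in 69. Among the 109 lower genes the medians were -0.51 in the shKdm5c#2 line and 0.29 in the control line, with the control line farther from IB10 in 43 and the lines on opposite sides in 90. Counted another way, the shKdm5c#2 line was within 1.2-fold of IB10 in 33 of the higher and 20 of the lower genes, and the control line in 9 of the higher and 50 of the lower genes. For most of the higher genes the control line thus lay farther from IB10 than the shKdm5c#2 line did. Every array title names the same reference, IB10 A, without a replicate. Distances from IB10, here and below, therefore also depend on that RNA, which the difference between the lines does not.

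**Figure D2:**
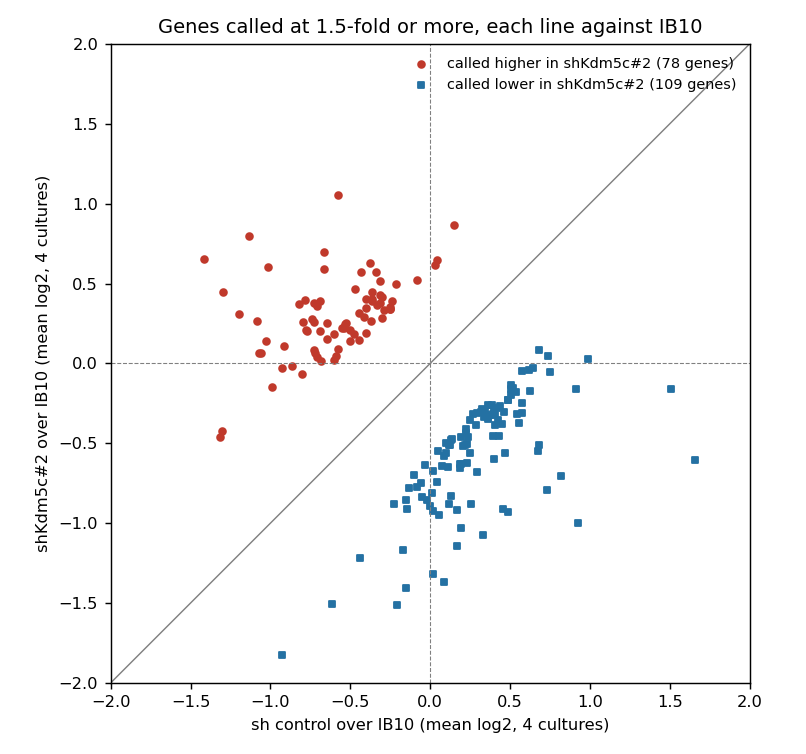
Mean log2 ratio over IB10 in the shKdm5c#2 line (vertical axis) against the same in the sh control line (horizontal axis) for the 187 genes called at 1.5-fold or more. Most points lie in the upper left and lower right fields, where the lines stand on opposite sides of IB10, and the higher genes reach farther along the control axis.

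Genes of the primed epiblast and of the primitive streak held the largest increases. Of 21 primed epiblast markers 12 were higher and 2 lower, with a list median of 0.27 where the median of all genes was -0.0042. Of 32 genes of the primitive streak and early mesoderm, 11 were higher and 5 lower. T, the transcription factor brachyury that marks the primitive streak, read 0.62, 0.50, 0.63 and 0.86 in shKdm5c#2 cultures A to D, against -1.44, -1.49, -1.30 and -1.42 in the control cultures. That is a 4.19-fold difference (log2 2.07, standard error 0.07, limma adjusted p = 1.52e-12), and it is split between a level above IB10 in one line and a level well below IB10 in the other. Fgf5, a growth factor that defines the primed epiblast, read 0.78, 0.62, 0.81 and 0.99 in the shKdm5c#2 cultures, against -1.17, -1.22, -1.06 and -1.08 in the control cultures.

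The transcription factor Otx2, which directs the step from naive to primed cells, read 0.56, 0.52, 0.71 and 0.58 with shKdm5c#2, against -0.71, -0.61, -0.71 and -0.64 with the control hairpin. The de novo DNA methyltransferase gene Dnmt3b followed the same order, at 0.26, 0.25, 0.31 and 0.30 in the shKdm5c#2 line and -0.73, -0.67, -0.78 and -0.78 in the control line. Pim2, an X-linked kinase gene that is higher in epiblast stem cells, read 0.47, 0.47, 0.45 and 0.41 with shKdm5c#2, against -1.30, -1.17, -1.31 and -1.40 with the control hairpin. In all 3 genes the lines stood on opposite sides of IB10 and the cultures of a line lay within 0.25 log2 of each other. Fst, which encodes the activin antagonist follistatin, was higher by 1.18 and the tight junction gene Cldn6 by 0.90. The exceptions on this list were Sall3 at -0.52 and the ETS factor Etv4 at -0.23, both called lower.

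Among streak genes, Cyp26a1 encodes an enzyme that degrades retinoic acid and Sp5 a transcription factor induced by Wnt. Cyp26a1 read 0.91, 1.17, 1.19 and 0.93 in the shKdm5c#2 cultures, against -0.52, -0.61, -0.53 and -0.65 in the control cultures. Sp5 read 0.65, 0.63, 0.75 and 0.75 with shKdm5c#2, against -0.69, -0.73, -0.64 and -0.61 with the control hairpin. Wnt3, the ligand that starts the streak in the mouse, was higher by 1.11 on its brighter probe and by 0.49 on the dimmer one. Of 33 genes of Wnt signalling, 8 were higher and 5 lower, with a list median of 0.03. That is 39.4 percent called, where 9.96 percent of all genes were called higher and 12.3 percent lower. The feedback inhibitor Axin2 stood at 0.50 and the receptor gene Fzd7 at 0.37, while the secreted inhibitors Dkk1 and Sfrp1 stood at -0.40 and -0.38 and Myc at -0.28. Kdr and Tcf15, which act in mesoderm after the streak, were among the 5 lower members of the streak list, both at -0.67. Eomes, a T-box factor of the streak, was higher by 0.76 (standard error 0.05, limma adjusted p = 1.23e-08).

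The pathway of Nodal and Activin, which also induces the streak, had more lower than higher members. Of its 22 genes 11 were lower and 4 higher, with a median of -0.09. Inhbb, the subunit of activin B, read -0.60, -0.58, -0.51 and -0.51 in the shKdm5c#2 cultures, against 0.65, 0.62, 0.71 and 0.73 in the control cultures, although its dimmer probe differed by only -0.03. The proprotein convertase gene Pcsk6 fell by 0.59, the Nodal antagonist Lefty1 by 0.52 and the inhibitory Smad7 by 0.49, whereas Lefty2 was higher by 0.32. The number of lower genes was 7 without culture A of the shKdm5c#2 line or culture C of the control line, 7 in the 8 arrays alone and 4 with median centring. Of 22 genes of BMP signalling 5 were lower and 1 higher, 27.3 percent called where 22.2 percent of all genes were called. Id2, an inhibitor of differentiation induced by BMP, stood at -0.60.

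Factors of the naive state were mostly lower. Of 10 transcription factors of the naive network, 6 were lower and 2 higher, with a median of -0.25. A wider list of 26 pluripotency factors, which holds all of these but Gbx2, was more even. It had 8 lower and 6 higher, with a median of -0.03. Gbx2 read -0.03, 0.02, 0.04 and 0.10 in the shKdm5c#2 cultures, against 1.00, 1.07, 0.93 and 0.95 in the control cultures. It thus stood at the level of IB10 in the shKdm5c#2 line and was about as far above it in all 4 control cultures. Tbx3 read -0.50, -0.48, -0.39 and -0.45 with shKdm5c#2, against 0.41, 0.47, 0.43 and 0.41 with the control hairpin. Klf4, a factor downstream of LIF and Stat3, read -0.26, -0.29, -0.21 and -0.16 with shKdm5c#2, against 0.51, 0.49, 0.49 and 0.46 with the control hairpin. The orphan receptor Nr0b1 fell by 0.70. Tcfcp2l1, a naive factor as well, was higher by 0.26. Of 20 targets of LIF and Stat3, 10 were lower and 5 higher. Beside Gbx2 and Klf4, the feedback inhibitor Socs3 fell by 0.28 and Bcl3 by 0.37, while the immediate early genes Fos and Egr1 were higher by 0.40 and 0.37. With median centring 3 of these 20 were called lower and 1 higher.

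**Figure D3:**
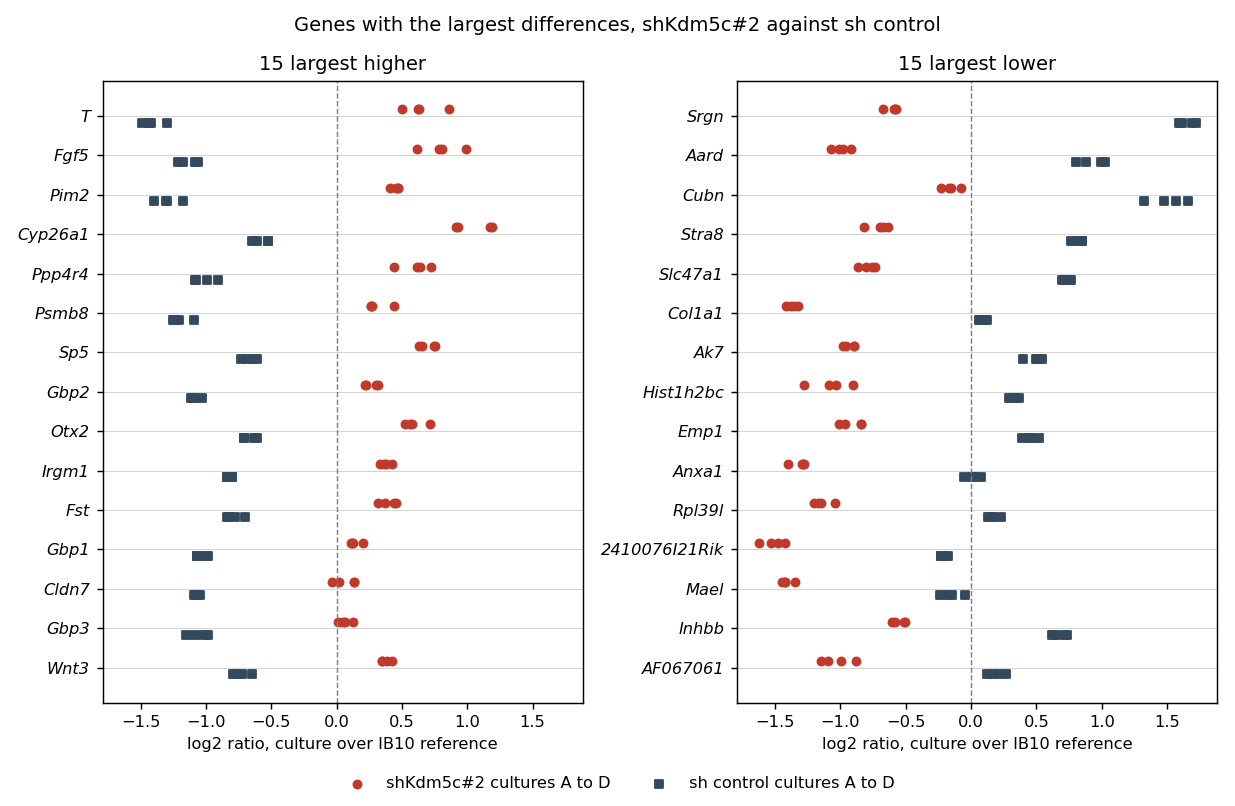
Log2 ratio over IB10 of each culture (horizontal axis) for the 15 genes with the largest increase and the 15 with the largest decrease, circles for shKdm5c#2 and squares for sh control. The rule that chose the genes asks for cultures that do not overlap, and for most genes circles and squares lie on opposite sides of the dashed line at IB10.

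Interferon-induced genes and genes of antigen presentation were the most uniform group of increases. Interferons act through factors that bind 2 short promoter elements, the interferon-stimulated response element (ISRE), which Irf factors recognise, and the gamma-activated site (GAS). The promoters of Gbp2, Irgm1 and Irf1 are printed because these genes differed by over 1 log2 and hold 1 of these elements close to the start. They are RefSeq windows of GRCm38.p6, written on the strand of the gene from upstream of its start to 50 bases after it, and capitals mark the element. Gbp2 is at chr3:142620413-142620712 on the plus strand and holds an ISRE core, which is GAAA, any 2 bases and GAAA again, read on the opposite strand. Irgm1 is at chr11:48871371-48871670 on the minus strand, with 2 overlapping ISRE cores. Irf1 is at chr11:53769764-53770063 on the plus strand, with a GAS, TTCNNNGAA.
Gbp2: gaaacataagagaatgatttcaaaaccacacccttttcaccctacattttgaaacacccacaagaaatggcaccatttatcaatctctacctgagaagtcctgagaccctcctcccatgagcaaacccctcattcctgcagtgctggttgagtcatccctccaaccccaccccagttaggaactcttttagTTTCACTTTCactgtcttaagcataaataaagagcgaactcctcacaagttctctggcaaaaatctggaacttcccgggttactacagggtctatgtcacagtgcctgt
Irgm1: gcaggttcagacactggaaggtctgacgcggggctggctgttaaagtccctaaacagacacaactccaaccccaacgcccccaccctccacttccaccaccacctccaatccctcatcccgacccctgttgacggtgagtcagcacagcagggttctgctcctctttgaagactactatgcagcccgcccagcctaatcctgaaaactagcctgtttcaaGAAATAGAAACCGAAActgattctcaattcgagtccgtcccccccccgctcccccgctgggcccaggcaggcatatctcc
Irf1: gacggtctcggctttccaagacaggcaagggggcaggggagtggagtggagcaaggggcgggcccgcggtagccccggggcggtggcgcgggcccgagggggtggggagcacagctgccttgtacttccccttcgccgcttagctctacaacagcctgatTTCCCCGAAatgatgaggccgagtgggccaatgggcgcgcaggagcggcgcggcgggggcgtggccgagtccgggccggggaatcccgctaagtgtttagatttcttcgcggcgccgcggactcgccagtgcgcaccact

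The interferon list numbered 50 genes, of which 27 were higher in the shKdm5c#2 line and 1 was lower, with a median of 0.16. Gbp2, an interferon-induced GTPase, read 0.32, 0.22, 0.21 and 0.30 in shKdm5c#2 cultures A to D, against -1.09, -1.03, -1.10 and -1.11 in the control cultures (log2 difference 1.35, standard error 0.03, limma adjusted p = 1.69e-13). Irgm1, a GTPase of the same kind that acts on phagosomes, read 0.36, 0.37, 0.43 and 0.33 with shKdm5c#2, against -0.84, -0.80, -0.84 and -0.80 with the control hairpin. Another Irgm1 probe gave 1.32, and the dimmest of its 3 probes, above background on 5 of 8 arrays, gave -0.00. Irf1, a transcription factor that interferon gamma induces through its GAS, read 0.08, 0.20, 0.15 and 0.01 in the shKdm5c#2 cultures, against -0.91, -0.88, -0.95 and -0.90 in the control cultures. In these 3 genes the shKdm5c#2 line was close to IB10 or slightly above it, and the control line was well below it.

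The same held for the list as a whole, whose median over IB10 was 0.03 in the shKdm5c#2 line and -0.19 in the control line. The list members that were not called included Mx1, Irf7, Oas3 and Rsad2, with log2 differences of 0.06, -0.01, -0.01 and 0.03. Cxcl10, a chemokine gene, was the member called lower. It read -0.87, -0.89, -0.95 and -0.92 with shKdm5c#2, against -0.78, -0.81, -0.74 and -0.68 with the control hairpin, so both lines were below IB10. Irf1, Mx1, Irf7, Oas3 and Rsad2 were named after their values were seen. The GTPases Gbp1, Gbp2 and Gbp3 are near-identical in parts, and a probe for one may pick up another. With median centring 19 of the 50 genes were called higher.

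Of 24 genes of MHC class I and antigen processing, 17 were higher and 0 lower, with a median of 0.22. Psmb8, a catalytic subunit of the immunoproteasome, read 0.27, 0.26, 0.26 and 0.44 in the shKdm5c#2 cultures, against -1.24, -1.25, -1.09 and -1.21 in the control cultures. Its other probe gave 0.94. Erap1, which trims peptides in the endoplasmic reticulum, read 0.22, 0.33, 0.24 and 0.25 with shKdm5c#2, against -0.72, -0.79, -0.68 and -0.70 with the control hairpin. The proteasome activator subunit Psme1 was higher by 0.56 and the class Ib gene H2-M3 by 0.60. H2-M3 was above background in 3 of the 4 control cultures. Class I heavy chain genes share long stretches of sequence, so the separate values of members of the H2-Q and H2-T families are uncertain. B2m, Psmb8, Psmb9 and Tap1 stand on this list and on the interferon list. With median centring 10 of the 24 were called higher.

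The promoter elements were counted in 14673 genes with a RefSeq window, on both strands. The ISRE core was found in 3.24 percent of them, in 19 percent of the 63 genes called higher at 1.5-fold or more, and in 4.76 percent of the 84 genes called lower at that size. Among genes called at any size the shares were near that of all windows. They were 3.82 percent of the 1441 called higher and 2.67 percent of the 1838 called lower. The interferon list, which was written from known interferon targets, held it in 57.5 percent of 40 genes, and those of its members called higher in 59.1 percent of 22, about the same. GAS matches were found in 7.61 percent of all windows, in 32.5 percent of the interferon list, and in 9.52 percent of the 63 genes called higher at 1.5-fold or more.

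Genes of germ cells fell more often than they rose. The promoters of Mael and Ddx4 are shown because both genes are among the largest decreases of this kind and both hold the E-box CACGTG, given in capitals, which the germ-cell repressors Max and Mga and related factors bind. They are RefSeq windows of GRCm38.p6 as above, Mael at chr1:166238695-166238994 and Ddx4 at chr13:112652261-112652560, both on the minus strand.
Mael: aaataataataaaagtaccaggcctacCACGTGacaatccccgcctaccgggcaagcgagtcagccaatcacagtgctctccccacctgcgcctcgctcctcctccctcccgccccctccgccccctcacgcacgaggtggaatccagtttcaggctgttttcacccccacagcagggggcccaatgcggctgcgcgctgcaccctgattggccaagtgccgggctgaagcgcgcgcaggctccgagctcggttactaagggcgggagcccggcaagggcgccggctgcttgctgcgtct
Ddx4: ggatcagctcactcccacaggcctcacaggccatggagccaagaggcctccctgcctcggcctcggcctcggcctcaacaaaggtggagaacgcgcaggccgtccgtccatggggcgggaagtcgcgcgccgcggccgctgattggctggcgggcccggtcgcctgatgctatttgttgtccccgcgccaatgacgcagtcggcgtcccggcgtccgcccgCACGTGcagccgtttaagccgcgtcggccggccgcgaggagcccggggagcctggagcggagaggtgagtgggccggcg

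Of 45 genes of germ cells and the piRNA pathway, 25 were lower and 7 higher, with a median of -0.16. Mael, a component of the granules in which piRNAs are made, read -1.44, -1.42, -1.42 and -1.35 in shKdm5c#2 cultures A to D, against -0.18, -0.24, -0.14 and -0.05 in the control cultures. Its dimmer probe differed by 0.01. Ddx4, the helicase that marks germ cells, read -0.98, -0.94, -0.86 and -0.89 with shKdm5c#2, against 0.17, 0.15, 0.17 and 0.19 with the control hairpin (log2 difference -1.09, standard error 0.03, limma adjusted p = 1.52e-12). Rpl39l, a paralog of a ribosomal protein gene that is enriched in testis, read -1.15, -1.04, -1.20 and -1.17 with shKdm5c#2, against 0.23, 0.15, 0.13 and 0.16 with the control hairpin. The dimmer probe of Rpl39l differed by -0.48, against -1.31 for the brighter one. In these genes the shKdm5c#2 line was the one that stood away from IB10. Tex19.1, a gene of pluripotent and germ cells, fell as well, by 1.00.

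The 7 germ-cell genes that rose included 2 with large differences. Tdrd12, a tudor-domain protein of the piRNA pathway, read 0.63, 0.53, 0.56 and 0.57 in the shKdm5c#2 cultures, against -0.40, -0.31, -0.34 and -0.32 in the control cultures. Tex14, which is needed for the bridges between dividing germ cells, read 0.75, 0.96, 1.08 and 0.67 with shKdm5c#2, against 0.15, 0.22, 0.08 and 0.14 with the control hairpin. Gtsf1l stood at 0.55 and Dppa3, a gene of early germ cells and of the naive epiblast, at 0.39. Of the 37 list members with a window 27 percent held the E-box, against 8.61 percent of all genes. It was found in 40 percent of the 20 members called lower and in 0 percent of the 6 called higher, where a count of this size can show little. Among the genes of meiosis described next it was in 50 percent of the 4 called higher and 37.5 percent of the 8 called lower.

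Among 27 genes of meiosis, 8 were lower and 4 higher, 44.4 percent called where 22.2 percent of all genes were called. Stra8, which retinoic acid induces at the entry into meiosis, read -0.82, -0.70, -0.63 and -0.67 in the shKdm5c#2 cultures, against 0.85, 0.85, 0.82 and 0.77 in the control cultures. Syce1, a central element protein of the synaptonemal complex, read -0.63, -0.73, -0.76 and -0.59 with shKdm5c#2, against 0.31, 0.29, 0.28 and 0.30 with the control hairpin. Higher were Syce2, a partner of Syce1 in the central element, at 0.49, and the meiotic cohesin gene Smc1b at 0.44. Of 12 genes of the 2-cell stage, which a small share of stem cells express in bursts, 7 were lower and 0 higher. That is 58.3 percent lower, against 12.3 percent of all genes. Zscan4c read -0.48, -0.51, -0.47 and -0.44 with shKdm5c#2, against 0.12, 0.14, 0.16 and 0.12 with the control hairpin. Copies of Zscan4 are near-identical, and the value may be that of several.

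Markers of extraembryonic endoderm, the lineage of the yolk sac, were lower for 18 of 41 genes and higher for 3, with a median of -0.11. Srgn, the proteoglycan serglycin, had the largest decrease of all genes. It read -0.58, -0.58, -0.67 and -0.59 in the shKdm5c#2 cultures, against 1.69, 1.62, 1.59 and 1.72 in the control cultures, which put the shKdm5c#2 line at 20.9 percent of the control level (log2 -2.26, standard error 0.04, limma adjusted p = 1.42e-14). Cubn, the endocytic receptor cubilin of visceral endoderm, read -0.15, -0.23, -0.08 and -0.17 with shKdm5c#2, where it was above background in 3 of 4 cultures, and 1.57, 1.48, 1.32 and 1.66 with the control hairpin. For Cubn the shKdm5c#2 line was near IB10 and the control line far above it. Nid1, a basement membrane linker, was the reverse case, with the 4 shKdm5c#2 cultures between -1.02 and -0.81 and the 4 control cultures between -0.03 and 0.05.

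The endocytic adaptor Dab2 stood at -0.80 and Gata6, a transcription factor that directs this lineage, at -0.67. The 3 genes that rose were Krt8, Krt18 and Fst, which other lineages express as well. The mean of the list over IB10 lay between -0.11 and -0.08 in the shKdm5c#2 cultures and between 0.09 and 0.12 in the control cultures. Whether the cultures held differing numbers of endoderm-like cells was not tested.

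Of 34 genes of collagen and basement membrane, 16 were lower and 2 higher, 52.9 percent called where 22.2 percent of all genes were called. Col1a1, a fibrillar collagen chain, read -1.32, -1.38, -1.42 and -1.35 with shKdm5c#2, against 0.12, 0.06, 0.07 and 0.10 with the control hairpin. Its 2 dimmer probes differed by -0.17 and -0.08. The prolyl hydroxylase gene P4ha2 fell by 0.72 and the laminin chain Lama1 by 0.70. Of 33 markers of fibroblasts and feeders 11 were lower and 5 higher, with Vim at -0.37, Col5a2 at -0.39 and Col1a2 at -0.55, but Fn1 at 0.41 and Thy1 at 0.39. The summed fibroblast list, as a mean over IB10, ran from -0.18 to -0.14 in the shKdm5c#2 cultures and from -0.07 to -0.04 in the control cultures. The labels name gelatin and no feeder layer, and the part of other cells in these values was not tested.

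Epithelial genes were more often higher than lower. Of 37 genes of junctions, cadherins and claudins, 14 were higher and 5 lower, and of 33 genes of keratins and the epithelial cytoskeleton 12 were higher and 6 lower. Krt8, a keratin of simple epithelia, read -0.32, -0.44, -0.52 and -0.42 in the shKdm5c#2 cultures, against -1.24, -1.30, -1.36 and -1.31 in the control cultures. Its partner Krt18 read -0.37, -0.43, -0.50 and -0.53 with shKdm5c#2, against -1.37, -1.25, -1.36 and -1.28 with the control hairpin. Both lines were thus below IB10, the control line by more. Cldn7, a claudin of tight junctions, was higher by 1.13, Cldn4 by 0.50, the desmosomal Dsp by 0.49 and Krt19 by 0.74. Lower were Anxa1, an annexin, which read -1.30, -1.29, -1.40 and -1.28 with shKdm5c#2, against 0.01, -0.05, 0.08 and 0.03 with the control hairpin, and the desmosomal Perp and Pkp2 at -0.55 and -0.37. Of 26 trophectoderm markers, to which Krt8, Krt18 and Krt19 also belong, 8 were higher and 5 lower. That is 50 percent called, where 22.2 percent of all genes were called. With median centring 5 of the 37 junction genes and 6 of the 33 keratin and cytoskeleton genes were called higher.

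Targets of p53 were mostly lower, at 19 of 35 with 3 higher and a median of -0.14. Of the list 62.9 percent were called, against 22.2 percent of all genes. Plk3, a stress-induced kinase gene, read -0.51, -0.41, -0.44 and -0.67 with shKdm5c#2, against 0.26, 0.29, 0.15 and 0.24 with the control hairpin. Gadd45a, a gene of the DNA damage response, read -0.53, -0.45, -0.44 and -0.42 with shKdm5c#2, against 0.15, 0.20, 0.20 and 0.21 with the control hairpin. Plk2 and Perp fell by 0.58 and 0.55. Cdkn1a, the cell-cycle inhibitor p21, was not called (log2 difference 0.03, adjusted p = 0.753, chosen after its value was seen). Gadd45b was higher by 0.34. With median centring 6 of the 35 were called lower.

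Of 37 histone genes of the clusters, 15 were lower and 0 higher. Hist1h2bc read -1.08, -0.90, -1.03 and -1.28 in the shKdm5c#2 cultures, against 0.33, 0.32, 0.29 and 0.37 in the control cultures. The linker histone gene Hist1h1c read -0.97, -0.92, -0.83 and -0.80 with shKdm5c#2, against 0.26, 0.21, 0.26 and 0.29 with the control hairpin. Of 50 genes of S phase, which serve the replication of DNA, 7 were higher and 8 lower, near the share of all genes. Of 46 genes of G2 and mitosis 12 were higher and 2 lower, with Pttg1, the securin that guards sister chromatids, at 0.57 and Top2a at 0.35. The G2 count is not stable. It was 7 without culture C of shKdm5c#2, 6 without culture C of the control line, 6 in the 8 arrays alone and 1 with median centring. Histone genes of a class are near-identical in sequence, so values of single genes are uncertain, and the histone count was 6 with median centring.

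Stress and metabolic genes differed in both directions. Atf4, the transcription factor of the amino acid response, read 0.41, 0.43, 0.53 and 0.49 in the shKdm5c#2 cultures, against -0.49, -0.45, -0.44 and -0.51 in the control cultures. Of the 52 genes of the Atf4 and unfolded protein responses, 16 were higher and 8 lower, and 5 lower without culture B of shKdm5c#2 or without culture A or D of the control line. Targets of Atf4 in serine and proline synthesis, Psat1 and Aldh18a1, were higher by 0.47 and 0.37, while Xbp1 and Dnajc3, which serve protein folding in the endoplasmic reticulum, fell by 0.58 and 0.27. Of 36 genes of glycolysis and hypoxia, 14 were higher and 6 lower, 55.6 percent called where 22.2 percent of all genes were called. Slc16a3, the exporter of lactate, read 0.26, 0.33, 0.27 and 0.14 with shKdm5c#2, against -0.64, -0.55, -0.67 and -0.73 with the control hairpin. Epas1, the hypoxia-inducible factor 2 alpha, went the other way and read -0.63, -0.70, -0.59 and -0.32 with shKdm5c#2, against 0.51, 0.29, 0.52 and 0.54 with the control hairpin. Of 49 genes of the mitochondrial respiratory chain 19 were lower and 1 higher, which is 40.8 percent called. Cox5b stood at -0.41 and Ndufa8 at -0.34. The number of lower respiratory chain genes was 1 with median centring and 5 without the dye term. With median centring 4 of the 52 stress genes and 6 of the 36 glycolysis genes were called higher.

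Genes of chromatin regulators were called in both directions. Of 37 Polycomb genes, 10 were lower and 5 higher, 40.5 percent called where 22.2 percent of all genes were called. They were led by E130012A19Rik at -0.71 and Bmi1 at -0.41 on one side. Phf1, which reads methylated lysine 36 of histone H3, stood at 0.41 on the other. The 22 genes of H3K4 methyltransferase complexes gave 6 higher and 5 lower, with no member past 0.27 in size, and 3 higher without culture C of shKdm5c#2 or without culture A or D of the control line. The 24 genes of complexes in which Kdm5c has been found, with Rest, E2f6 and the G9a enzyme, gave 4 higher and 6 lower, and 3 lower without culture A of shKdm5c#2. Among 18 genes of DNA methylation and its removal 5 were higher and 4 lower. Dnmt3b and the chromatin remodeller Hells were higher by 1.02 and 0.57, and Apobec2, of the family of cytidine deaminases, fell by 0.82. Tet2, which oxidises methylated cytosine, fell by 0.47, a difference that was not called with median centring (adjusted p = 0.127) or in the Cy5 cultures alone (adjusted p = 0.0545). Of 37 imprinted genes 10 were lower and 4 higher, with Igf2, a fetal growth factor, at -0.89 and Grb10, an inhibitor of insulin signalling, at 0.80. Without culture C of shKdm5c#2 the imprinted genes called lower were 6 and the Polycomb genes called higher 3. Of 36 Hox genes 9 were lower and 0 higher, 25 percent called where 22.2 percent of all genes were called and 12.3 percent were lower. With median centring each of these 6 lists had 0 to 2 members called higher and 0 to 3 called lower.

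Several of the largest differences were in genes outside these lists. Aard, a gene of little known function, read -1.07, -0.92, -1.01 and -0.98 in the shKdm5c#2 cultures, against 1.02, 0.80, 0.88 and 1.00 in the control cultures, so the lines stood about equally far from IB10 on either side. Ppp4r4, a regulatory subunit of protein phosphatase 4, read 0.61, 0.44, 0.63 and 0.72 with shKdm5c#2, against -1.08, -1.08, -0.91 and -0.99 with the control hairpin. Slc47a1, an exporter of organic cations, stood at -1.52, the adenylate kinase gene Ak7 at -1.42 and the membrane protein gene Emp1 at -1.37. 2410076I21Rik, which RefSeq names Rec114, a gene of meiotic recombination that is not on the meiosis list, stood at -1.31. The transcript AF067061 stood at -1.22. Dimmer probes of some of these genes gave smaller values of the same sign, at 0.83 for Ppp4r4, -1.05 for Slc47a1 and -0.37 for AF067061, and the dimmest of 3 probes of Ak7 gave -0.08.

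Genes of neuronal function, which loss of Kdm5c is known to affect in neurons, were seldom called. Dimmer genes were called less often in general, and the lists were not matched for brightness. Of 26 genes of synaptic and neuronal function 2 were higher and 2 lower, and of 21 clustered protocadherin genes 1 was lower, both shares below those of all genes. Genes of neuroectoderm were called more often, at 41.4 percent of 29, with 5 higher and 7 lower and with Neurod1, a neuronal transcription factor, at -1.01.

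**Figure D4:**
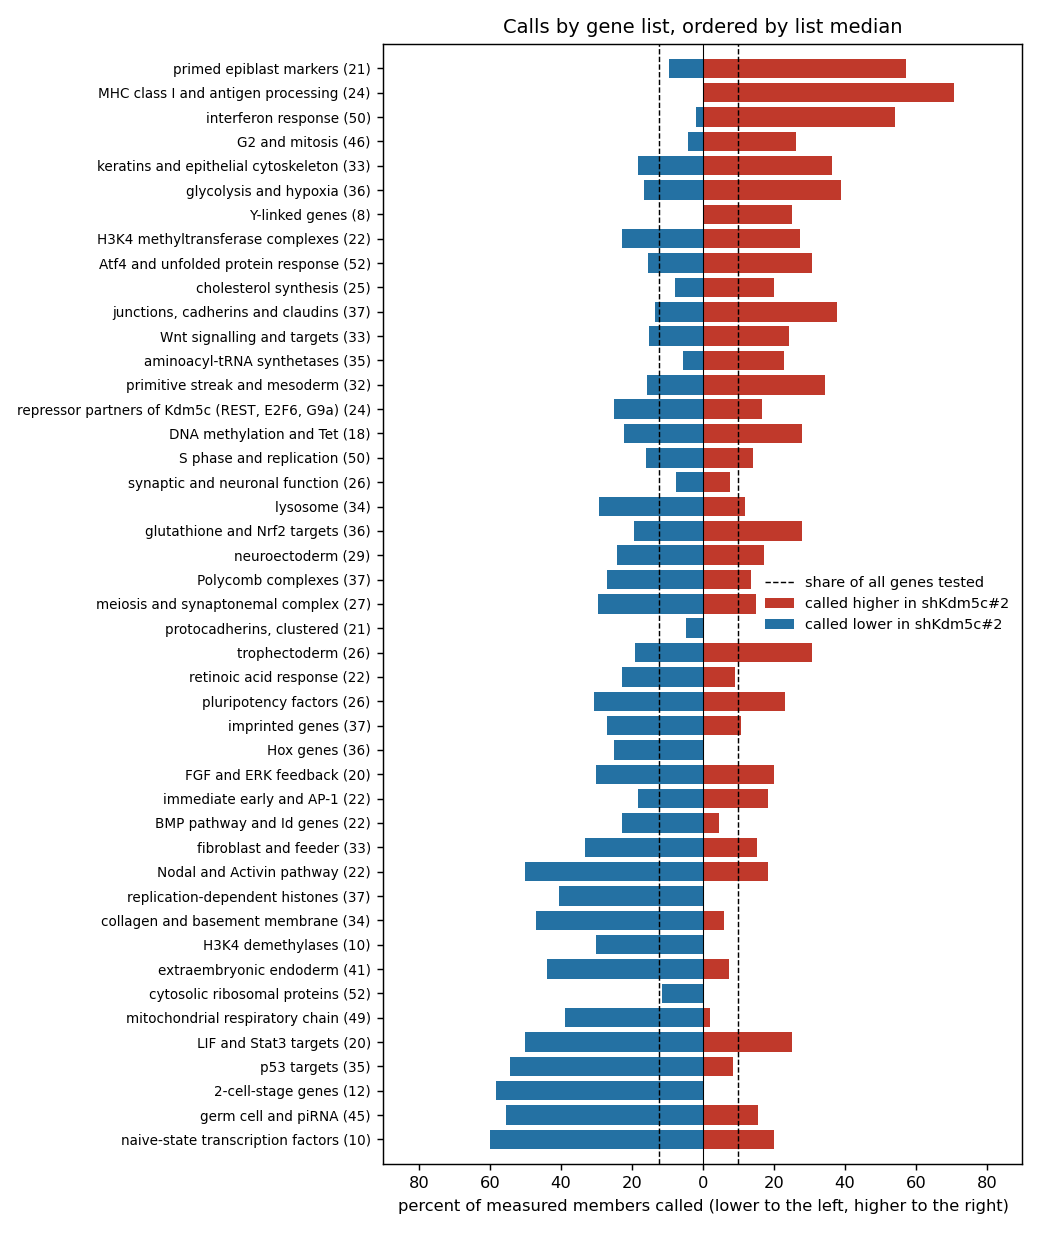
Percent of the measured members of each gene list called higher (right) and lower (left) in the shKdm5c#2 line, with the number of members in brackets and dashed lines at the shares of all genes, 9.96 and 12.3 percent. Primed epiblast, interferon and MHC class I genes stand out to the right, and germ-cell, 2-cell-stage, p53 and naive-state genes to the left.

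Chromosome 19 differed as a whole. Of its 638 genes, 169 were higher (26.5 percent) and 36 lower (5.64 percent), against 9.37 percent higher and 12.5 percent lower on the other chromosomes. The difference was small for each gene. Over the 323 genes of chromosome 19 that were brighter than the median gene, a split chosen after the data were seen, the median was 0.08 log2, which is 1.06-fold, and 70.6 percent of the genes were above 0. The median over IB10 of these genes was 0.09, 0.08, 0.08 and 0.07 in shKdm5c#2 cultures A to D, against -0.01, -0.00, 0.00 and -0.01 in the control cultures. The shKdm5c#1 line stood at 0.01. The median was positive in each of 10 bins of neighbouring genes along the chromosome, between 0.04 and 0.15.

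On the other autosomes the same median over brighter genes ran from -0.03 to 0.01. Chromosome 8 was raised over IB10 in both lines, by 0.13 in the shKdm5c#2 line and by 0.12 in the control line, and by 0.07 in the shKdm5c#1 line, so it did not differ between the 2 lines compared here. Copy number of chromosomes was not measured, and its part in these values was not tested. Without chromosome 19, 1656 genes were called higher and 2213 lower. Of the called genes whose differences are given above, Cyp26a1, Anxa1, Hells, Psat1, Dkk1 and Aldh18a1 lie on chromosome 19, at 1.63, -1.33, 0.57, 0.47, -0.40 and 0.37. On the X chromosome, which carries Kdm5c, 111 of 654 genes were higher (16.97 percent) and 75 lower (11.47 percent). Among the autosomes only chromosome 19 had a larger share called higher, and the next was chromosome 8 at 12.05 percent. The median over the brighter genes of the X chromosome was 0.02, and the cause of its share of higher genes was not tested.

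**Figure D5:**
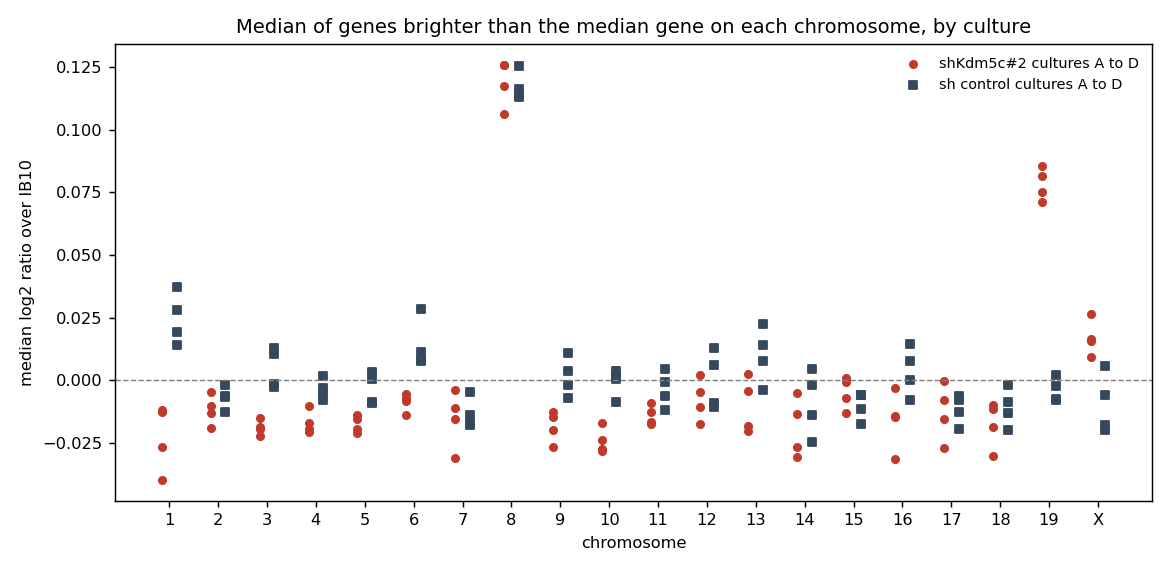
Median log2 ratio over IB10 of the brighter genes on each chromosome (vertical axis, Y left out for its 4 genes), for each culture of shKdm5c#2 (circles) and sh control (squares). The circles of chromosome 19 lie between 0.07 and 0.09 and its squares near 0, while on chromosome 8 circles and squares lie together above 0.1.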

How the data were processed

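Per the file headers, the deposited raw files give spot intensity and local background intensity in Cy5 and Cy3, and the authors' deposited table holds log2 of their normalized Cy5 over Cy3 signal (largest difference from their normalized signals 5.00e-10). The method of that normalization is not given in the sources used here. Direction follows the dyes in the labels. The raw intensities were background-corrected in limma 3.58.1 under R 4.3.3 (normexp, offset 50), normalized within arrays by loess, and turned to culture over IB10. The brightest probe stood for each gene. Of 41174 gene probes, 34186 had a symbol. Of the 18322 symbols, 16254 were found in RefSeq (GRCm38.p6) and 2020 among its synonyms. A spot was above background when it passed the background median by 2 background SDs, as 84.4 to 96.4 percent per array did. Precision is limited by the 4 cultures of each line. The standard error of a difference had a median of 0.04 log2.

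The 12 arrays entered 1 linear model of line and dye. From shKdm5c#1 came a part of the spread, of the fitted dye effect and of the mean intensity that chose the brightest probe. P-values are limma's, adjusted by Benjamini-Hochberg over all genes. The fit was tested on simulated data. Named genes are Kdm5c and other H3K4 demethylases, the 15 largest called differences in each direction with cultures that do not overlap, up to 4 called members per list and direction, and Pou5f1, Nanog, Sox2 and Zfp42. Members, lists and this rule were chosen with earlier results of these data known, so no list was tested. Culture letters were checked as pairs: deviations of A minus C correlated between the lines at r = 0.03 and B minus D at r = 0.34. The B minus D deviations were thus partly shared between the lines. The main fit did not take the letters as pairs, and a fit with the letter as a replicate block called 4520 genes. Promoters were searched and figures drawn under Python 3.11.15 with matplotlib 3.10.9.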

Additional observations from a re-analysis of the deposited data

Results flagged for a closer look

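In 11 gene and line combinations of the 252 looked at, 1 culture lay far from the other 3 of its line, measured as its gap to the nearest other culture over the whole range of the 4. Chance alone would single out about 1 in 20 such groups of 4, which is about as many. Of the shKdm5c#2 cultures, D was the one for Psmb8 (0.44, others 0.26 to 0.27), Id2 (-0.78, others -0.60 to -0.57), Cldn4 (-0.51, others -0.34 to -0.31) and Psat1 (0.54, others 0.40 to 0.41). Culture C was the one for Srgn (-0.67, others -0.59 to -0.58) and Anxa1 (-1.40, others -1.30 to -1.28), and culture A for Fos (-0.018, others 0.07 to 0.09). Of the control cultures, D was the one for Kdm5c (-0.052, others 0.04 to 0.05) and Lefty1 (-0.13, others 0.05 to 0.08), and B for Epas1 (0.29, others 0.51 to 0.54) and Smad7 (0.37, others 0.13 to 0.17). In each of these genes the difference between the lines was called with and without that culture.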

How the results depend on the processing

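The number of genes called, 4074, was 2607 without the dye term, 795 with median centring, 1298 from the Cy5 cultures alone, and 3410 to 4317 when 1 culture was left out. For genes called higher, 1825, these settings gave 1163, 353, 542 and 1503 to 1860, and the Cy3 cultures alone gave 1191. For genes called lower, 2249, they gave 1444, 442, 756 and 1823 to 2457. The 187 genes at 1.5-fold or more were 122 with the mean over probes and 179 to 200 when 1 culture was left out. The 109 lower ones among them were 68 with the mean over probes and 164 with an offset of 16. The authors' deposited table gave 4041 and 222 genes, the 8 arrays alone 3432 and 187. With the culture letter as a replicate block 4520 genes were called, and in that fit Zfp42 was called lower (adjusted p = 0.0418), with no other change among the named genes. Kdm5c ranged from -0.72 to -0.57 and was called in every fit. The chromosome 19 median of 0.08 was 0.12 with median centring, 0.08 in the deposited table, and 0.075 to 0.090 when 1 culture was left out. A fit without the dimmest 25 percent of genes held 121 of the named genes checked, where the 8 arrays alone held 125. Of 116 named genes that were called, 93 were called under every alternative that held them. With median centring 22 were not called, and 1 more, Gadd45b, was not called in the Cy5 cultures alone (adjusted p = 0.169). Kdm2b, among the 22, was also not called without culture B of shKdm5c#2. List counts of 0 to 2 genes moved by 1 or 2 when single cultures were left out. Acta2, 1 of the 5 fibroblast genes called higher, turned to -0.38 with the mean over probes, and Tgm2, in the lists as well, to 0.012. The causes were not tested. Slide and scan could not be used as a block, since the files name neither. Spots near background limit the dimmest genes.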

Other observations

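The counts of the other gene lists are given here. Of 52 genes of cytosolic ribosomal proteins 0 were higher and 6 lower, 11.5 percent where 12.3 percent of all genes were lower, with a list median of -0.11. The count was 2 without culture C of shKdm5c#2 or without culture C or D of the control line, and 12 without control culture B or with the mean over probes. Of 35 aminoacyl-tRNA synthetase genes, 8 were higher and 2 lower. Of 25 genes of cholesterol synthesis 5 were higher, or 3 without culture C of shKdm5c#2, and 2 lower. These lists had 28.6 and 28 percent of members called, not far from the 22.2 percent of all genes. Genes of glutathione metabolism and other Nrf2 targets gave 10 higher and 7 lower of 36 (47.2 percent called). Lysosomal genes gave 4 higher and 10 lower of 34 (41.2 percent). Feedback targets of FGF and ERK signalling gave 4 higher and 6 lower of 20 (50 percent), immediate early genes 4 and 4 of 22 (36.4 percent), in the same order. Among 22 genes of the retinoic acid response, 2 were higher and 5 lower, which is 31.8 percent called. The list held both Cyp26a1, one of the largest increases, and Stra8, one of the largest decreases, although retinoic acid induces both genes in other settings. With median centring 0 of the tRNA synthetase genes and 1 of the cholesterol genes were called higher, and 1 of the lysosomal genes was called lower.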
